A study of Homo sapiens with 12 samples.

Results

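Connexins are the proteins that build gap junctions, and 6 of their genes were followed here in MCF10A cells: GJA1, GJA5, GJB2, GJB5, GJB6 and GJC1. They were taken as the rows of the deposited count table that carry the Entrez identifiers of these genes, 6 of 23459 rows, and they were chosen with their levels in these libraries already known. Their levels and differences below are therefore a description of these samples. A few other connexin genes of the same table are given beside them.

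MCF10A is a non-tumorigenic human mammary epithelial cell line. All cells carried an inducible allele of YAP5SA, a form of the transcriptional co-activator YAP that the Hippo kinases can no longer restrain, and all were grown with horse serum, insulin, hydrocortisone, cholera toxin and EGF. They were infected with an empty vector or with a vector that overexpresses JUN, a subunit of the AP-1 transcription factor, and then received doxycycline (Dox, 100 ng/ml) to switch YAP5SA on or its solvent ethanol (EtOH). This gave 4 groups of 3 libraries, named for vector and treatment: vector EtOH and vector Dox, JUN Dox and JUN EtOH. No group without the YAP5SA allele received doxycycline, so the agent and the allele it induces cannot be told apart, and 1 parental line underlies all groups.

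A gap junction channel is made of a ring of connexins in each of the facing membranes of neighboring cells, and it lets ions and small metabolites pass from cell to cell. Connexins are grouped by sequence into alpha (GJA), beta (GJB), gamma (GJC) and delta (GJD) families, and which of them a cell makes sets with which partners it can couple and what can pass. GJA1 (Cx43) is the most widespread connexin and is known from the basal cells of the mammary gland, GJB2 (Cx26) and GJB6 (Cx30) from the inner ear, the skin and secretory epithelia, GJB5 from the skin and the trophoblast, GJA5 (Cx40) from arterial endothelium and the atria, and GJC1 (Cx45) from smooth muscle and the cardiac conduction system.

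The promoter sequences are shown first because the design manipulates a co-activator that reaches DNA through TEAD factors and a subunit of AP-1. RefSeq windows on GRCh38.p14 were matched for 4 of the 6 genes, with 2 windows for GJA5, while GJB5 and GJC1 have no entry. Each window covers 250 bases before and 50 after a transcript start, of which the 250 upstream bases are printed 5' to 3' on the strand of the gene. Capitals mark the AP-1 motif TGAGTCA, which reads TGACTCA when it lies on the other strand, or the TEAD motif GGAATG, which there reads CATTCC, and no match of one overlaps a match of the other.
GJA5, first window, minus strand, chr1:147773352-147773601: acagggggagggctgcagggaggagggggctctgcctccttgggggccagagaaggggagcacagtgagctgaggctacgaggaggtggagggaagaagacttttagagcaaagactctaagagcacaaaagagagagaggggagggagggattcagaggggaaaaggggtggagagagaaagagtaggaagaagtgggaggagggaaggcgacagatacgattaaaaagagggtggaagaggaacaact
GJA5, second window, minus strand, chr1:147760603-147760852: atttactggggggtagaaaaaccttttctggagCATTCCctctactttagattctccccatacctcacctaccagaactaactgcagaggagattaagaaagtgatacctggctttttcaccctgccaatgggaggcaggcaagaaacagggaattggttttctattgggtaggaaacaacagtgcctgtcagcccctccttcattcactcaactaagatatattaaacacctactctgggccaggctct
GJB2, minus strand, chr13:20192939-20193188: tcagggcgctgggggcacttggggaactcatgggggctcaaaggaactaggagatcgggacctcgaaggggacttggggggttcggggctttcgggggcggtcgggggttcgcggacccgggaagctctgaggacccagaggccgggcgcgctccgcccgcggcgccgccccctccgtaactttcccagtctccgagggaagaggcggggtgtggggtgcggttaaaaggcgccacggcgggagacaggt
GJA1, plus strand, chr6:121435396-121435645: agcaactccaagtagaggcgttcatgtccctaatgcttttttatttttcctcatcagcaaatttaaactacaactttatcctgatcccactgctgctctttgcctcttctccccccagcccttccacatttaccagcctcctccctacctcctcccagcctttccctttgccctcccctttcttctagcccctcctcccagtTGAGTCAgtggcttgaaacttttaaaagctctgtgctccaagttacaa
The second GJA5 window held 1 TEAD motif at bases -217 to -212 from the transcript start, read on the strand opposite to the gene. The GJA1 window held 1 AP-1 motif at bases -48 to -42. Neither motif was found in the first GJA5 window, in GJB2 or in GJB6, which says only that these letters are not in these windows. Among all 35116 promoter windows of 300 bases, 4.95% held the AP-1 motif and 14.0% held the TEAD motif. The GC content of the printed bases was 55.6% and 45.6% for GJA5, 70.0% for GJB2 and 48.0% for GJA1, against a median of 58.0% over all windows.

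The libraries held 18594867 to 28993487 counts each, so a floor of 3 counts lay at 0.107 to 0.15 CPM, the usual unit of counts scaled by library size, here after correction of the sizes by the TMM method of edgeR. JUN, the gene carried by the vector, measured 47.6 ± 10.5 CPM (SD, n = 3) with EtOH and 189.7 ± 4.15 with Dox in vector cells, and 1279 ± 186.8 with EtOH and 1248 ± 92.3 with Dox in JUN cells. All 6 epithelial markers, the basal KRT5, KRT14, KRT17 and TP63 with CDH1 and EPCAM, were above the floor in every group. Their summed level was 6611 to 6912 CPM with EtOH and 3599 to 4439 with Dox in vector cells. In JUN cells it was 5071 to 6650 with EtOH and 3009 to 5024 with Dox. KRT5 and KRT17 carried most of this sum, at 4615 and 1662 CPM as means in vector EtOH. YAP1, the gene whose mutant form YAP5SA is induced, measured 179.4 ± 10.6 CPM with EtOH and 236.5 ± 31.5 with Dox in vector cells, and 234.4 ± 20.9 and 279.9 ± 79.3 in JUN cells (SD, n = 3 each). It was not called on induction in either (log2 0.40 and 0.26, edgeR adjusted p = 0.0819 and 0.308), and JUN Dox replicate 3 lay below all JUN EtOH libraries. Counts per gene do not separate the induced allele from endogenous YAP1, and the study describes the allele as expressed at endogenous levels. Protein was not measured in these libraries. Induction therefore names the doxycycline treatment in what follows. In such bulk samples, fewer cells of a type and less RNA per cell cannot be told apart.

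GJA1 and GJB6 were practically undetected in these cells. GJA1 received 6 counts in all 12 libraries together: 1 in vector EtOH replicate 3, 1 and 2 in JUN EtOH replicates 2 and 3, 2 in JUN Dox replicate 2 and 0 in the other libraries. GJB6 received 3 counts: 2 in vector EtOH replicate 2 and 1 in vector Dox replicate 2. Both genes stayed at or under the floor of 3 counts in every library, so that no difference between the groups was detectable at this depth and no fold is given. The low GJA1 level goes against what is known of basal mammary cells. Of the 3333 distinct 75-base words in annotated GJA1 transcripts, 90 (2.7%) also occur in transcripts of the pseudogene GJA1P1. The bearing of shared sequence or of the counting on this level was not tested.

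**Figure D1:**
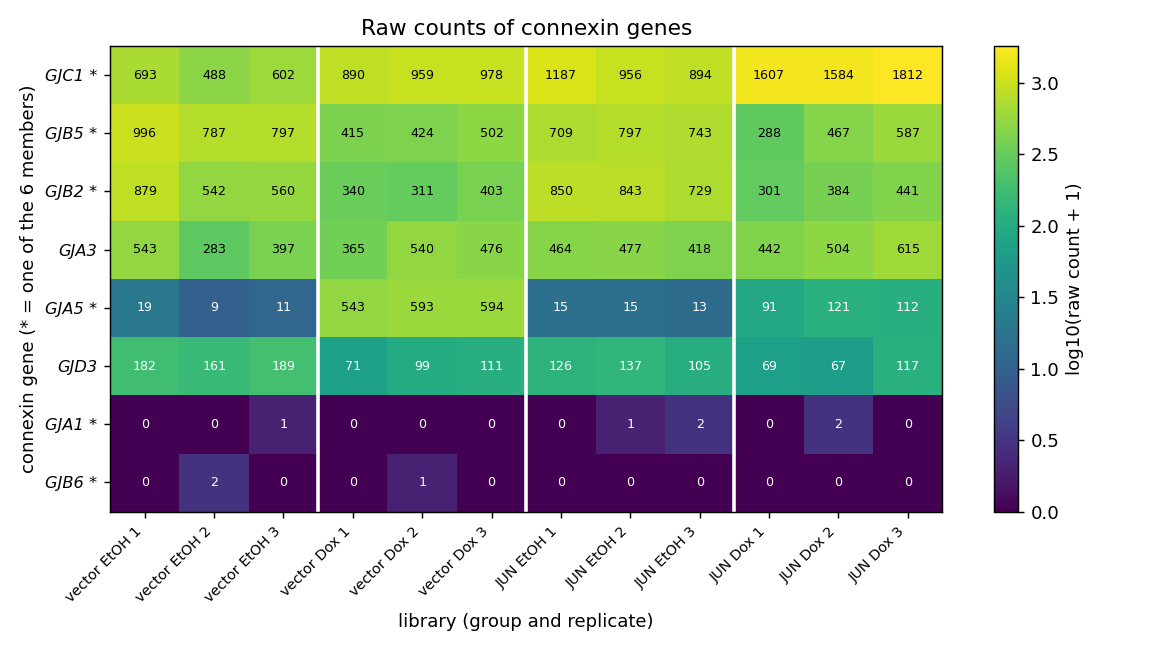
Raw counts of the 6 members (marked *) and of GJA3 and GJD3 (rows, ordered by their sum) in each of the 12 libraries (columns, by group and replicate), with the color giving log10 of the count plus 1. GJC1 holds 488 to 1812 counts a library, while GJA1 and GJB6 never exceed 2.

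The members GJA5, GJB2, GJB5 and GJC1 passed the filter on low counts, as did GJA3 and GJD3, 2 other connexins given beside them.

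Across the comparisons, GJA5 and GJC1 stood higher and GJB2 and GJB5 lower after YAP5SA induction. Calls were made at an edgeR adjusted p under 0.05 over all 14775 genes tested. In vector cells induction left 2 of the 4 tested members higher and 2 lower, where 30.1% of all genes were called (15.6% higher and 14.4% lower). In JUN cells the count was again 2 higher and 2 lower, where 21.4% of all genes were called (11.2% and 10.3%). The JUN vector without induction left 2 members higher and 0 lower, where 39.0% of all genes were called (20.1% and 18.9%). With induction it left 1 higher and 1 lower, where 35.6% of all genes were called (18.4% and 17.2%). The interaction, which asks whether the response to induction differed between JUN and vector cells, was called lower for 1 member, where 1.12% of all genes were called (0.291% higher and 0.826% lower). Nothing is read from these counts, since the same values chose the genes.

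**Figure D2:**
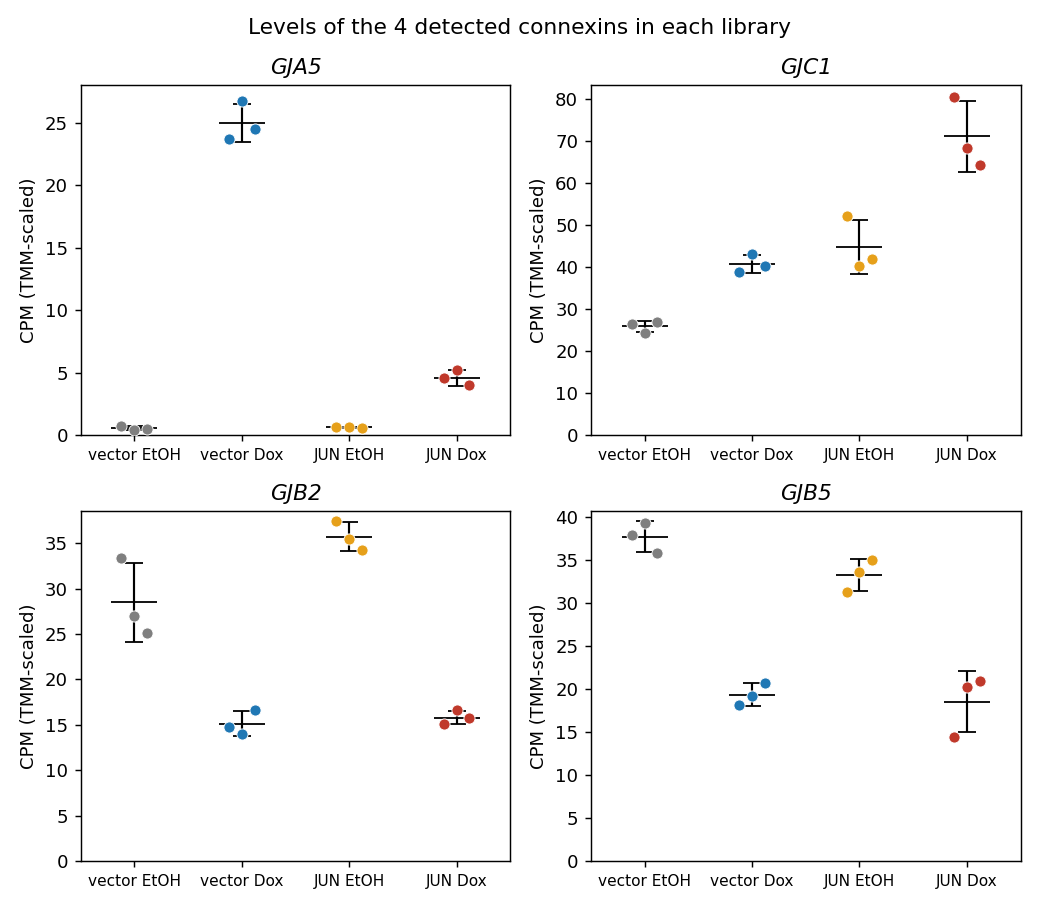
Level in CPM (y axis, from 0) of the 4 detected members in each library by group (x axis), with points for the 3 libraries and bars for the mean and SD. GJA5 is near 0 without doxycycline and at 23.7 to 26.7 CPM in vector Dox, GJC1 is highest in JUN Dox, and GJB2 and GJB5 are lower in both doxycycline groups.

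GJA5, the alpha connexin of arteries and atria, went from near the floor to a well measured transcript. It measured 0.722, 0.449 and 0.494 CPM in vector EtOH, from 19, 9 and 11 counts. In vector Dox it measured 23.7, 26.7 and 24.5 CPM, from 543, 593 and 594 counts. The JUN EtOH libraries gave 0.66, 0.632 and 0.61 CPM, and the JUN Dox libraries 4.57, 5.23 and 3.98 CPM. All vector Dox libraries lay above all JUN Dox libraries and these above all EtOH libraries, while the EtOH groups overlapped.

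The fitted log2 change of GJA5 on induction was 5.45 (SE 0.19) in vector cells, 43.8-fold, and 2.84 (SE 0.20) in JUN cells, 7.17-fold. Under doxycycline its level was 5.45-fold lower with the JUN vector than without it (log2 difference -2.45, SE 0.14). Without doxycycline the vectors differed by 0.16 (SE 0.27) on the log2 scale. The interaction, the response of JUN cells less that of vector cells, was -2.61 (SE 0.31) on the log2 scale, while GJA5 was higher in every JUN Dox library than in any EtOH library. The 5 endothelial markers summed to 2.24 to 2.93 CPM with EtOH and 1.22 to 1.58 CPM with Dox in vector cells, and to 1.01 to 1.36 and 0.782 to 1.30 CPM in JUN cells. Of the 2 that could be tested, PECAM1 fell on induction in vector cells, from 1.75 ± 0.241 to 0.0601 ± 0.104 CPM (SD, n = 3, edgeR adjusted p = 5.52e-05). TEK measured 0.472 ± 0.285 and 1.16 ± 0.130 CPM there (SD, n = 3; log2 1.24, edgeR adjusted p = 0.0752), and CDH5 was at or under the floor in every library. The part of endothelial transcripts in the level of GJA5 was not tested. A long non-coding RNA on the opposite strand shares 643 exonic bases with GJA5, and since the use of strand in counting is not given in the sources used here, reads of both cannot be told apart.

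GJC1, the gamma connexin of smooth muscle and the conduction system, was higher with either manipulation and highest with both. It measured 26.4, 24.4 and 27.0 CPM in vector EtOH and 38.8, 43.2 and 40.4 CPM in vector Dox. JUN cells gave 52.2, 40.3 and 42.0 CPM with EtOH and 80.6, 68.5 and 64.4 CPM with Dox. The JUN Dox libraries were above all others and the vector EtOH libraries below all others, while vector Dox and JUN EtOH overlapped. Induction changed its level by 0.65 (SE 0.12) on the log2 scale in vector cells and by 0.67 (SE 0.12) in JUN cells, 1.57-fold and 1.59-fold. The JUN vector changed it by 0.79 (SE 0.12) without and 0.80 (SE 0.12) with induction, 1.73-fold and 1.74-fold. The interaction was 0.011 (SE 0.17), a value that changed sign in 6 of the fits that left out 1 library. The 5 fibroblast markers also summed higher with the JUN vector, at 19.8 to 32.9 CPM against 8.57 to 12.3 CPM without induction and 14.5 to 23.5 against 5.05 to 5.74 CPM with it. LUM (log2 3.09 and 2.55) and DCN (log2 1.56 and 1.95) were called higher in both, COL1A1 and PDGFRB in neither, and COL1A2 was at or under the floor in every library. On induction COL1A1, DCN and PDGFRB were called lower in vector cells (log2 -1.11, -0.93 and -2.54). In JUN cells COL1A1 and PDGFRB were called lower on induction (log2 -1.24 and -1.98), while DCN was not called. LUM was not called on induction with either vector. The part of these changes in the level of GJC1 was not tested. Only 5 of its 8849 transcript words (0.057%) occur in other genes.

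GJB2, the beta connexin of the inner ear and the epidermis, was lower under doxycycline with either vector. It measured 33.4, 27.0 and 25.1 CPM in vector EtOH and 14.8, 14.0 and 16.6 CPM in vector Dox. In JUN cells it measured 37.4, 35.5 and 34.2 CPM with EtOH and 15.1, 16.6 and 15.7 CPM with Dox. Both doxycycline groups lay below both EtOH groups and overlapped each other. On induction the level was 1.88-fold lower in vector cells (log2 -0.91, SE 0.12) and 2.26-fold lower in JUN cells (log2 -1.18, SE 0.12), with an interaction of -0.26 (SE 0.17). The JUN vector went with a log2 difference of 0.32 (SE 0.11) without induction and 0.058 (SE 0.12) with it. The first of these was called, but not when vector EtOH replicate 2 or 3 or any of the JUN EtOH replicates was left out, where it ranged from 0.24 to 0.35.

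GJB5, the beta connexin of keratinocytes and trophoblast, was also lower under doxycycline with either vector. It measured 37.9, 39.3 and 35.8 CPM in vector EtOH and 18.1, 19.1 and 20.7 CPM in vector Dox. JUN cells gave 31.2, 33.6 and 34.9 CPM with EtOH and 14.4, 20.2 and 20.9 CPM with Dox. The doxycycline groups overlapped each other and lay below both EtOH groups, while the JUN EtOH libraries lay just below those of vector EtOH. Its level was 1.95-fold lower on induction in vector cells (log2 -0.96, SE 0.13) and 1.79-fold lower in JUN cells (log2 -0.84, SE 0.13). The vectors differed by -0.18 (SE 0.12) without and -0.059 (SE 0.13) with induction, and the interaction was 0.12 (SE 0.18). Of the 6 epithelial markers, the basal KRT5, KRT14, KRT17 and TP63 all fell on induction in vector cells (log2 -0.61 to -1.65, edgeR adjusted p up to 0.0135). CDH1 (log2 -0.0024) and EPCAM (log2 0.16), which are not specific to basal cells, were not called there. In JUN cells KRT14, KRT17, TP63 and CDH1 fell, and KRT5 and EPCAM were not called. The part of these changes in the levels of GJB2 and GJB5 was not tested.

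**Figure D3:**
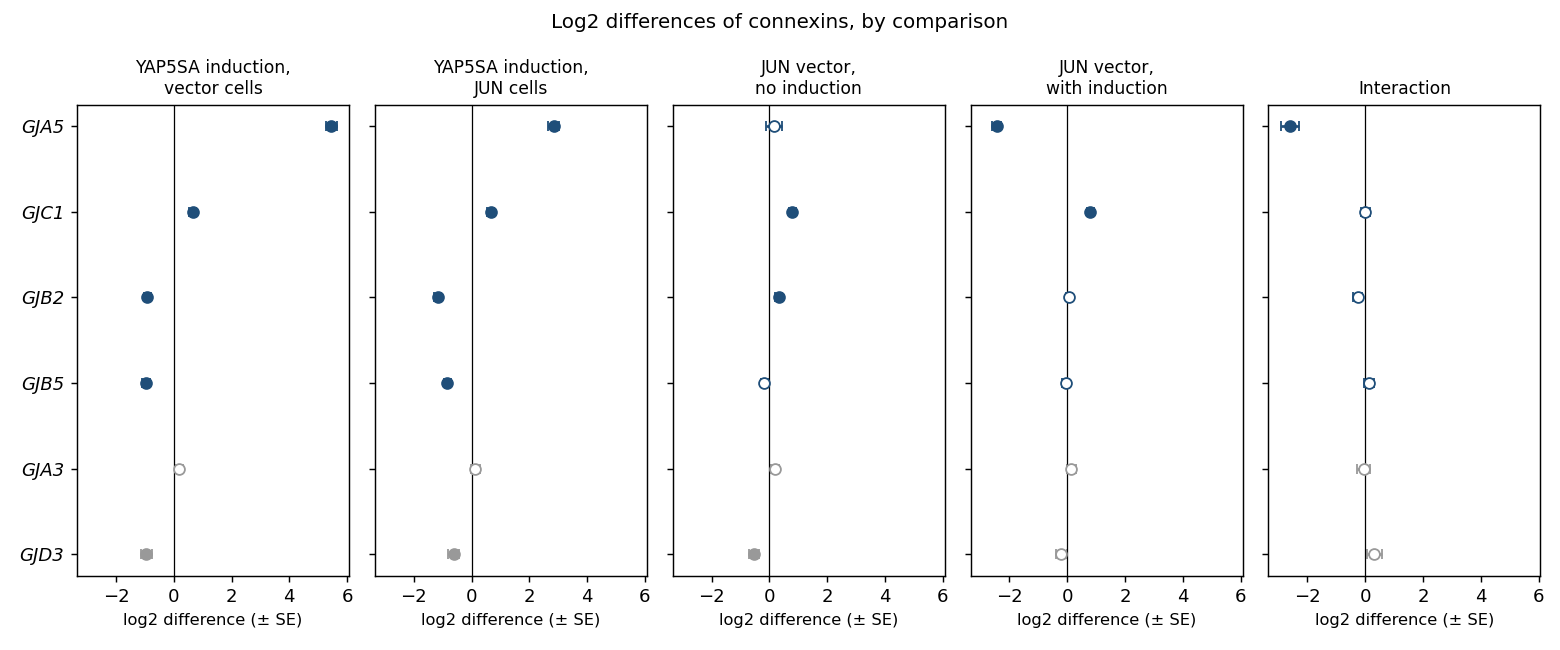
Fitted log2 difference (x axis, bars are SE) of 4 members and 2 other connexins (y axis) in the 4 pairwise comparisons and the interaction, with members in blue, the others in gray and filled points for calls at an adjusted p under 0.05. GJA5 spans 5.45 to -2.61, and GJC1 sits between 0.65 and 0.80 in all 4 pairwise panels.

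GJD3, a delta connexin, fell by 0.95 on the log2 scale on induction in vector cells (edgeR adjusted p = 0.00114). Its mean level there was 7.81 ± 0.803 CPM with EtOH and 4.05 ± 0.827 CPM with Dox (SD, n = 3 each). In JUN cells it fell by 0.62 (edgeR adjusted p = 0.0270), a call lost without JUN EtOH replicate 1 or 2 or JUN Dox replicate 1 or 2 (adjusted p up to 0.121). With the JUN vector it fell by 0.52 without induction (edgeR adjusted p = 0.0300), a call lost without vector EtOH replicate 2 or 3 or any of the JUN EtOH replicates (adjusted p up to 0.105). It shares 2094 exonic bases with an antisense RNA, so reads of both cannot be told apart.

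GJA3, a lens connexin, did not pass the test in any of the 5 comparisons, with log2 differences from 0.13 to 0.19 in the pairwise ones and edgeR adjusted p from 0.335 to 0.600 there. Its group means lay between 17.5 and 21.9 CPM.

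GJA3, GJB2 and GJB6 are neighbors in the genome and differed in level and pattern. On GRCh37, GJB2 (chr13:20761602-20767077, minus strand) lies 26410 bases from GJA3 and 29023 bases from GJB6 (chr13:20796101-20806504, minus strand). GJB2 was detected in every library, GJA3 likewise without a called change, and GJB6 was at or under the floor. The remaining members lie at chr1:147228332-147245466 on the minus strand (GJA5), chr1:35220648-35224113 on the plus strand (GJB5), chr17:42875816-42908184 on the minus strand (GJC1) and chr6:121756741-121770873 on the plus strand (GJA1).

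To compare levels between the members, CPM were divided by the annotated exon length in kb. On this scale GJB5 was the most abundant of the 6 in every group, at 13.7 to 27.8 CPM per kb as group means. Behind it came GJB2 in vector EtOH (11.5 CPM per kb) and JUN EtOH (14.4), GJA5 in vector Dox (7.66) and GJC1 in JUN Dox (8.16). GJA5 was the lowest of the 4 tested members in both EtOH groups, at 0.170 and 0.194 CPM per kb, and in JUN Dox, at 1.41, while GJC1 was the lowest in vector Dox, at 4.68. Within each group, all 3 libraries of a member lay above those of the member that followed it in this order. The order depends on the length used, 8716 bases for GJC1 and 1355 for GJB5, and no other length was tried. In CPM, GJC1 was above GJB5 in vector Dox (40.8 against 19.3), JUN EtOH (44.8 against 33.2) and JUN Dox (71.2 against 18.5). In vector EtOH it was below (25.9 against 37.6).

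The sum over the 6 members was 42.5 ± 2.47 CPM per kb (SD, n = 3) with EtOH and 32.7 ± 1.57 with Dox in vector cells, and 44.3 ± 0.312 with EtOH and 29.6 ± 1.94 with Dox in JUN cells. The libraries of each doxycycline group lay below those of the EtOH group with the same vector. The share of GJA5 in this sum was 0.399% ± 0.0886 with EtOH and 23.4% ± 1.44 with Dox in vector cells, and 0.439% ± 0.0185 with EtOH and 4.76% ± 0.641 with Dox in JUN cells (SD, n = 3 each). GJC1 took 7.02%, 14.3%, 11.6% and 27.8% in that order of groups, GJB2 27.1%, 18.7%, 32.6% and 21.6%, and GJB5 65.5%, 43.5%, 55.3% and 45.9%. The ratio of GJA5 to GJB2 per kb was 0.0146 ± 0.00191 and 1.26 ± 0.169 in the EtOH and Dox groups of vector cells, against 0.0135 ± 7.42e-05 and 0.220 ± 0.0245 in those of JUN cells. GJA5 transcripts per length thus exceeded those of GJB2 in all 3 vector Dox libraries (ratio 1.12 to 1.45) and in no other library. The ratio of GJB2 to GJB5 stayed between 0.377 and 0.657 in all 12 libraries.

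**Figure D4:**
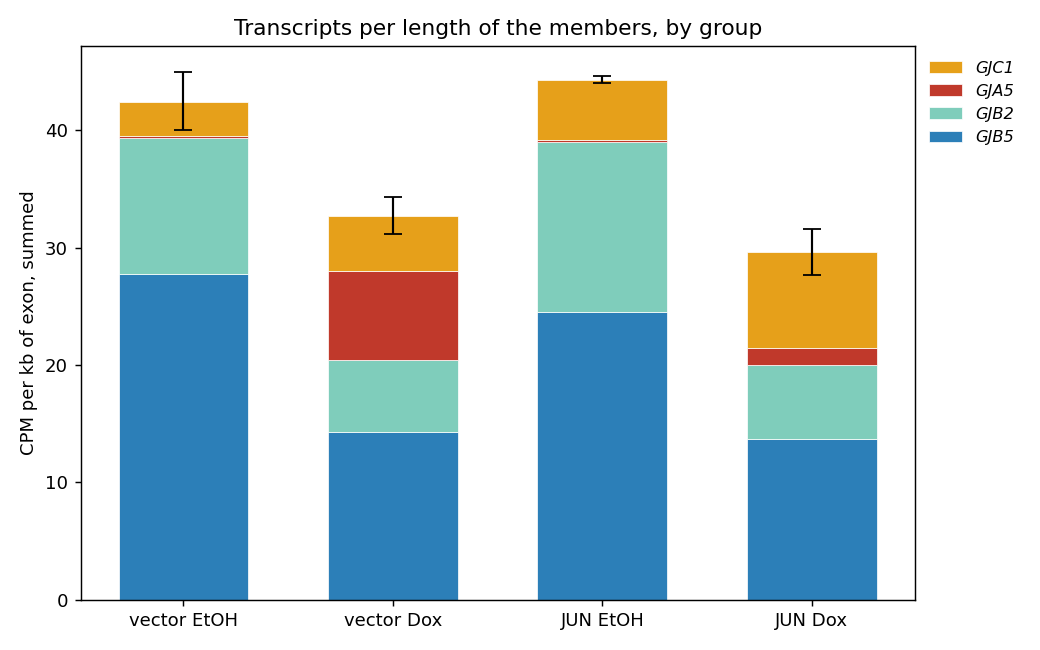
Mean CPM per kb of exon (y axis, from 0) of the 4 tested members stacked by group (x axis), with black bars for the SD of the sum over all 6 members in the 3 libraries. GJB5 forms the largest block in each group, and the GJA5 block is visible in vector Dox (7.66 CPM per kb) and thin in JUN Dox (1.41).

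The genes whose pattern over the 12 libraries was most like that of each member were ranked by Pearson correlation of log2 CPM among the 11404 genes that averaged 5 CPM or more. The libraries share their 4 groups, so that genes that differ between groups in the same order reach high values, which are given as a description. For GJA5 they were NRG1, a ligand of ERBB receptors (r = 0.992), the forkhead factor FOXF2 (0.992) and the small GTPase RND3 (0.991). NRG1 averaged 1.61 CPM with EtOH and 26.1 with Dox in vector cells, and 1.45 and 9.07 in JUN cells. For GJB2 they were the ERK phosphatase DUSP6 (0.978), ABTB3 (0.973) and ARHGEF4 (0.973). For GJB5 they were the phosphatase CTDSP1 (0.991), the translation factor EIF4B (0.989) and the nucleotide receptor P2RY2 (0.985). For GJC1 they were the collagen lysyl hydroxylase PLOD2 (0.984), TTPAL (0.980) and the tetraspanin TSPAN14 (0.980).

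Pannexins form channels in the plasma membrane but no gap junctions of the connexin kind in vertebrates. PANX1 rose with the JUN vector, from 42.4 ± 4.80 to 98.9 ± 14.6 CPM without induction (log2 1.22) and from 38.1 ± 8.88 to 74.3 ± 3.61 CPM with it (log2 0.96; SD, n = 3, edgeR adjusted p = 3.45e-05 and 2.67e-04). PANX2 rose from 6.61 ± 0.319 to 17.2 ± 1.32 CPM without induction (log2 1.38) and from 4.12 ± 0.337 to 11.4 ± 2.17 CPM with it (log2 1.47; SD, n = 3, edgeR adjusted p = 4.38e-06 and 3.47e-06). On induction PANX2 fell by 0.68 on the log2 scale in vector cells and by 0.58 in JUN cells (edgeR adjusted p = 0.00387 and 0.00714). PANX1 was not called on induction in vector or JUN cells (log2 -0.16 and -0.41, edgeR adjusted p = 0.497 and 0.0698). In JUN cells some alternatives, DESeq2 among them, called both lower. PANX3 was at or under the floor. The sum of the fibroblast markers, given beside GJC1, was also higher with the JUN vector, and its part in the pannexins was not tested.

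Connexin partners, 15 genes of proteins that bind connexins, move them or act on them, were all tested. Of these 5 rose and 3 fell on induction in vector cells (median log2 0.038, against 0.0072 over all genes, of which 30.1% were called), and 4 rose and 3 fell in JUN cells (median 0.033, against 0.0032, with 21.4% called). The JUN vector left 8 higher and 2 lower without induction (median 0.30, against 6e-04, with 39.0% called) and 10 higher and 1 lower with it (median 0.32, against 0.003, with 35.6% called), and 0 of 15 were called for the interaction by edgeR. At an unadjusted p under 0.05 the interaction held for 1 of them, CAV1, and 1 of the 15 was called lower by DESeq2, with RLE factors, among genes averaging 5 CPM or more and without vector Dox replicate 1. The count of 8 called on induction in vector cells fell to 3 without vector Dox replicate 3, to 4 without any 1 of the vector EtOH replicates, and to 5 without vector Dox replicate 2, JUN EtOH replicate 2 or JUN Dox replicate 2. CAV1, the scaffold of caveolae, rose on induction in vector cells (log2 0.93, edgeR adjusted p = 5.70e-06) and was lower in JUN cells under induction (log2 -0.97, edgeR adjusted p = 3.27e-06). It was also called lower with the JUN vector without induction (log2 -0.37, edgeR adjusted p = 0.00853). In JUN cells CAV1 rose on induction (log2 0.32, edgeR adjusted p = 0.0278). That call was lost when any of the JUN EtOH replicates or JUN Dox replicate 2 was left out, and without the filter on low counts. CCN3, a secreted protein that binds GJA1 protein, fell on induction by 1.57 in vector cells and 0.96 in JUN cells on the log2 scale, and was higher with the JUN vector under induction (log2 1.06, edgeR adjusted p = 5.70e-05, 0.00232 and 0.00171). NEDD4, a ubiquitin ligase, rose with the JUN vector without induction (log2 1.09, edgeR adjusted p = 6.17e-05), where UBQLN4, a shuttle to the proteasome, fell by 0.52 (edgeR adjusted p = 0.00669). DLG1, a scaffold at cell contacts, rose most on induction in JUN cells (log2 0.58, edgeR adjusted p = 0.00300).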

How the data were processed

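Poly(A)-selected RNA of 12 MCF10A libraries was sequenced as single 75-base reads. The authors trimmed reads with cutadapt 4.2, aligned them to hg19 with Bowtie2 2.3.5.1 and counted overlaps with genes (versions per the submitters' processing notes). The deposited values are raw counts per Entrez gene, and the annotation and the use of strand in counting are not given in the sources used here. Of 23459 identifiers, 99.4% were paired with a symbol. Groups came from the sample titles, and the study's methods give 3 biological replicates per condition.

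Counts were fitted for all 12 libraries together with edgeR 4.0.16 (R 4.3.3, robust quasi-likelihood test, TMM factors, filterByExpr with a minimum count of 10 and a minimum total of 15), and p-values were adjusted by Benjamini-Hochberg over the 14775 genes tested. The SE is the log2 difference divided by the square root of F. CPM used TMM-scaled library sizes, log2 CPM a prior count of 2, and CPM per kb the union of exons in GENCODE on GRCh37. Precision is set by library depth and a biological coefficient of variation of 12.5%. The floor of 3 counts covers counting error only. The scripts were tested on simulated data. Alternatives were DESeq2 1.42.0, RLE and upper-quartile factors, other filters, the libraries of 1 comparison alone, a replicate block and each library left out. The members and all gene lists were chosen with earlier results of these data known. Named were the 6 members, other tested connexins, the highest and lowest called gene of the pannexin and partner lists in each pairwise comparison, the 3 genes most like each member, the manipulated genes and the markers. Promoters were taken from RefSeq. A planned comparison of protein sequences was not run, as no protein table was used here. Leukocyte markers summed to 24.3 to 31.0 CPM with EtOH and 4.34 to 5.95 with Dox in vector cells, and to 9.20 to 11.8 and 1.46 to 3.52 in JUN cells. CD14 alone carried nearly all of this sum, at 26.9 and 5.32 CPM as means in vector EtOH and vector Dox. PTPRC and CD3E were at or under the floor. Some genes that this rule names are not reported here.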

Additional observations from a re-analysis of the deposited data

Results flagged for a closer look

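The response of GJA5 to YAP5SA induction differed between cells with the JUN vector and cells with the empty vector. The interaction in the edgeR fit over all genes was -2.61 on the log2 scale (SE 0.31), from a log2 change of 5.45 in vector cells and 2.84 in JUN cells, and GJA5 was higher in all 3 libraries of each doxycycline group than in any EtOH library. It ranged from -2.87 to -2.48 over 18 alternatives and stayed called in each. GJA5 was chosen with its levels in these libraries known, so this value is a description. The study placed GJA5 in its cluster 2 of YAP-induced genes, for which as a group it describes little or no effect of JUN overexpression.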

How the results depend on the processing

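Over the alternatives, the 4 tested members called on induction in vector cells and in JUN cells, the 2 called for the JUN vector with induction and the 1 called for the interaction kept these counts. The count of 2 for the JUN vector without induction ranged from 1 to 2 when 1 library was left out, as the call of GJB2 (log2 0.24 to 0.35, adjusted p 0.0519 to 0.158) was lost without vector EtOH replicate 2 or 3 or any JUN EtOH replicate. Of the members' single values, 364 kept their direction and call, 5 lost the call and 7 changed sign, all of the last not called. Those were GJB5 for the JUN vector with induction (0.092 without JUN Dox replicate 1, range -0.1543 to 0.092 without 1 library) and the interaction of GJC1 without 1 library (-0.0014, -0.016, -0.0188, -0.0608, -0.0346 and -0.0707, range -0.0707 to 0.1349). The interaction also changed sign for GJA3 (0.0848 and 0.1175, range -0.1907 to 0.1175). The cause of these changes was not tested beyond the smaller number of libraries. The group levels of GJA5, GJB2, GJB5 and GJC1 moved by less than 1 SD with total counts or RLE factors as the scaling.

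Over all genes, 3823 instead of 5766 were called for the JUN vector without induction without JUN EtOH replicate 1, 2082 instead of 3168 for induction in JUN cells without JUN EtOH replicate 2, and 3439 instead of 5267 for the JUN vector with induction from its own libraries alone. For the interaction 358 were called by DESeq2 and 97, 107 and 99 without vector EtOH replicate 3, JUN EtOH replicate 1 and JUN EtOH replicate 2, instead of 165. Of the partners, 7 instead of 11 were called for the JUN vector with induction from its own libraries alone.

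Correlations of deviations between samples with the same replicate number ran from -0.26 to 0.47, above 0.1 in 7 of 18 pairs. Every such pair without vector Dox replicate 1 or 2 was positive (0.012 to 0.47, highest for replicate 3 of JUN EtOH and JUN Dox). Vector Dox replicate 1 was positive with the replicate 2 libraries of vector EtOH, JUN EtOH and JUN Dox (0.315, 0.168 and 0.039). With the replicate 1 libraries of these groups it gave -0.230, -0.087 and 0.037, so JUN Dox hardly separates the 2 numbers. Vector Dox replicate 2 was positive with the replicate 1 libraries of the same groups (0.222, 0.125 and 0.066) and negative with their replicate 2 libraries (-0.258, -0.090 and -0.0175). Pairs of unlike number were also positive elsewhere. JUN EtOH replicate 2 gave 0.248 with JUN Dox replicate 1, against 0.012 with JUN Dox replicate 2. Whether these vector Dox numbers are exchanged was not tested, and the numbers were not read as a pairing. The replicate block used the numbers as labeled, so it does not cover a pairing with these exchanged. With the replicate block the interaction of GJA5 was -2.61 and the counts of called members were 4, 2, 4, 2 and 1 as without it. GJA1 and GJB6, at 6 and 3 counts in all, lie below what this depth can compare.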

Other observations

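Among other connexins that did not pass the filter on low counts, GJC3 received 27 counts, GJB7 18 and GJB1 8 in the 12 libraries together. These values stand without a comparison between groups.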
